A study of Mus musculus with 9 samples.

Results

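Genes of the cellular hypoxia response, 10 in all, were followed in mouse adipose cells under white adipocyte differentiation. The cells were kept with or without sodium alginate, the sodium salt of a polysaccharide from brown algae. The genes comprise 2 regulators (Hif1a and Epas1), 2 oxygen-sensing prolyl hydroxylases (Egln1 and Egln3) and 6 target genes (Vegfa, Adm, Ndufa4l2, Bnip3, Ero1l and Higd1a). The genes were taken by gene name from a table of 41761 genes, which returned 9 of the 10. Vegfa was taken by description instead. Its values are those of the protein-coding gene MGP_C57BL6NJ_G0024205, which the table describes as vascular endothelial growth factor A by similarity to a hamster protein, and it is kept out of the counts over the 9 genes found by name.

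The cells were primary adipose stem cells from the stromal vascular fraction of inguinal white fat of wild-type C57BL/6J mice. Alginate was given at 0, 50 or 100 µM, with 3 libraries per dose. All groups, 0 µM included, received dexamethasone (1 µM), the phosphodiesterase inhibitor IBMX (0.5 mM) and insulin (1 µg/ml). The treatment protocol adds rosiglitazone (1 µM), a PPARγ agonist that the design text does not mention. Dexamethasone and IBMX were withdrawn after the induction step. No group was labelled as low in oxygen, and sample titles give day 6 whereas the protocol gives the 7th day. Libraries assigned here to 100 µM carry 50 µM in their titles, and their treatment label and library names, which give 100 µM, were followed. The labels do not tie the libraries of a dose to separate cultures or animals, so a p-value here reflects how these libraries vary, and that variation may be technical.

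Cells sense oxygen through the α subunits of the hypoxia-inducible factors (HIF). With oxygen present, prolyl hydroxylases of the Egln family mark HIF1α (gene Hif1a) and HIF2α (gene Epas1) for degradation through the von Hippel-Lindau protein. In low oxygen the α subunits escape this, pair with Arnt and switch on genes of blood vessel growth, glycolysis, mitochondrial adjustment and collagen processing; in fat, HIF1α is best known for the response of expanding, poorly perfused tissue. Much of this control acts on protein stability, which RNA levels do not show.

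HIF binds a short core, ACGTG or GCGTG, in the DNA near its targets. The stretches below are the 250 bases upstream of the RefSeq transcription start on the mouse build GRCm38.p6, written 5′ to 3′ along the gene, for 2 genes that were lower at 100 µM (Hif1a and Adm) and 3 that were higher (Egln3, Ero1l and Higd1a). Capitals mark each ACGTG or GCGTG on either strand, so CACGT and CACGC are the same cores read on the opposite strand, and CACGTG counts as a core on both strands.
Hif1a (chr12:73907617-73907866, plus strand): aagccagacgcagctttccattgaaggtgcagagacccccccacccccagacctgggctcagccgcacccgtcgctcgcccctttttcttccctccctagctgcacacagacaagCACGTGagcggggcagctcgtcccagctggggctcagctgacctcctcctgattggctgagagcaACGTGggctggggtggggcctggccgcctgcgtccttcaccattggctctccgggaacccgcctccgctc
Adm (chr7:110627407-110627656, plus strand): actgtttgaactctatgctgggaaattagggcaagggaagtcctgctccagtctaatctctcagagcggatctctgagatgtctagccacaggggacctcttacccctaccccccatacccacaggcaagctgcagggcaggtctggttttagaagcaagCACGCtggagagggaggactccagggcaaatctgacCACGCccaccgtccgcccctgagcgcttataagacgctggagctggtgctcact
Egln3 (chr12:54203875-54204124, minus strand): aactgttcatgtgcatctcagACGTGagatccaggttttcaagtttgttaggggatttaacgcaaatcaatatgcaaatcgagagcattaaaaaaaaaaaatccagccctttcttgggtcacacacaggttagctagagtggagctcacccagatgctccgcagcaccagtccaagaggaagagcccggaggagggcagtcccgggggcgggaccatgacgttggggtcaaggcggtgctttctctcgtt
Ero1l (chr14:45318573-45318822, minus strand): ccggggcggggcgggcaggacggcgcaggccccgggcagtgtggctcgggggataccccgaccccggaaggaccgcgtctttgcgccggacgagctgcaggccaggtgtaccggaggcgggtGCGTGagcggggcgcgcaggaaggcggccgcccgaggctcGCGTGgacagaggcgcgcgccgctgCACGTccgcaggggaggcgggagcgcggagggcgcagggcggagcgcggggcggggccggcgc
Higd1a (chr9:121857797-121858046, minus strand): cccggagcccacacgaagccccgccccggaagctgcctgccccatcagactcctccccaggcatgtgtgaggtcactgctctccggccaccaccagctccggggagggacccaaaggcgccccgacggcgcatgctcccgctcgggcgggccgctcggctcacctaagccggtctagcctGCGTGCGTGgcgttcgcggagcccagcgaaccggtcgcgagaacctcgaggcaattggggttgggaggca
The Hif1a window holds 3 cores, 2 of them the paired strands of 1 CACGTG, and Ero1l (Ero1a in RefSeq) also holds 3. Adm and Higd1a hold 2 GCGTG cores each, sharing 1 base in Higd1a, and Egln3 holds 1 ACGTG. Among the genes not shown, Bnip3 holds 5 cores and Egln1 holds 2. Vegfa, on the minus strand, holds 0 at its first listed start (chr17:46032378-46032627). The 2 cores at its other listed start (chr17:46025164-46025413) lie downstream of the first start, further along the gene. A core is common: 38.6% of 32851 mouse windows of this length hold at least 1, and 16.7% hold 2 or more. In windows of protein-coding genes these shares are 44.0% and 20.1%. The shown windows are 50.8% (Egln3) to 80.8% (Ero1l) G or C, against a median of 55.6% in windows of protein-coding genes. The shares were not matched for this. Cores thus lay upstream of genes that were lower at 100 µM and of genes that were higher. Epas1 and Ndufa4l2 are named only.

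Values are FPKM (fragment counts corrected for gene length and library depth). Levels of different genes, and their order below, depend on the deposited gene lengths, which need not be the lengths of the transcripts present. At 0 µM the order of mean levels was Adm, Hif1a, Bnip3, Vegfa, Epas1, Ero1l, Ndufa4l2, Higd1a, Egln1 and Egln3. It ran from 179 ± 4.00 FPKM for Adm to 11.0 ± 0.0299 FPKM for Egln3 (SD, n = 3). Neighbours in that order had separate ranges, except that Ndufa4l2 overlapped Ero1l and Higd1a. At 100 µM the order was Adm, Bnip3, Vegfa, Hif1a, Ero1l, Higd1a, Epas1, Egln1, Egln3 and Ndufa4l2. Adm remained the highest at 120 ± 8.98 FPKM, and Ndufa4l2 was the lowest at 12.2 ± 1.45 FPKM. There the ranges of Vegfa and Hif1a overlapped, as did those of Egln3 and Ndufa4l2, and other neighbours were separate.

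**Figure D1:**
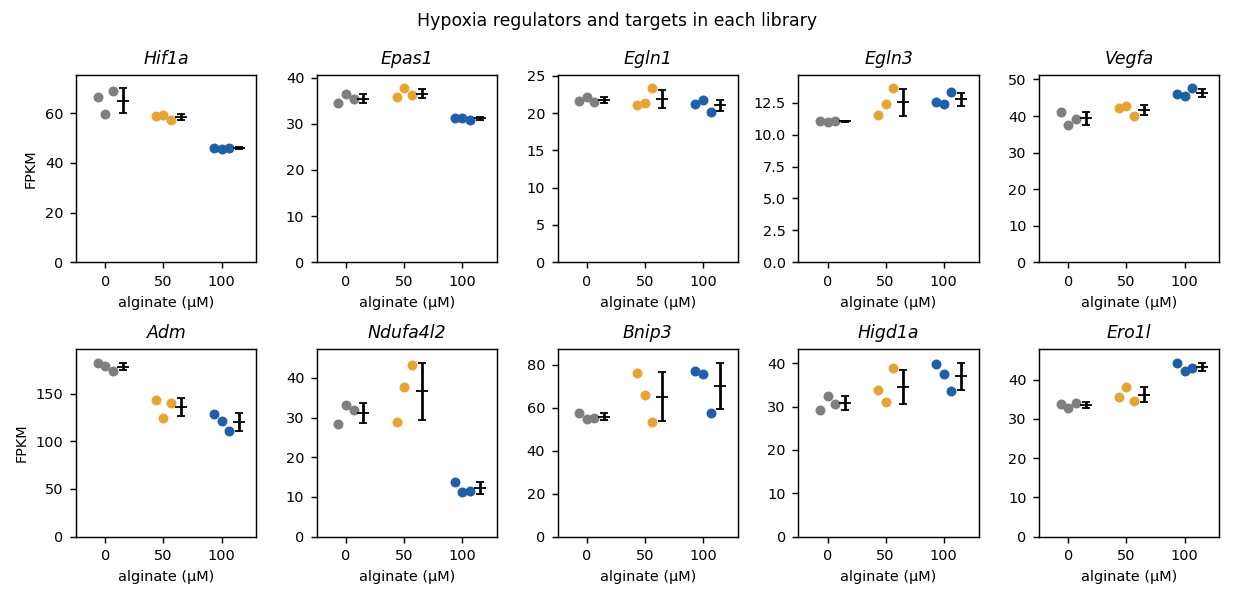
FPKM (y axis, from 0) of the 10 genes against alginate dose (x axis, µM); dots are libraries, and the bar beside them is the mean with its SD over 3 libraries. Ndufa4l2 libraries lie between 11.2 and 13.9 FPKM at 100 µM, below every other library, while Egln1 lies between 20.2 and 23.3 FPKM over all doses.

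The genes did not move as 1 group. Between 100 µM and 0 µM, a change was called where the Benjamini-Hochberg adjusted p of limma, fitted to log2(FPKM + 1) of 12635 genes, was below 0.05. Of the 9 genes found by name, 4 fell (Hif1a, Epas1, Adm and Ndufa4l2), 3 rose (Egln3, Ero1l and Higd1a) and 2 did not pass (Egln1 and Bnip3), and Vegfa rose. Of all genes tested, 33.9% were called in this comparison, 18.3% higher and 15.6% lower, and the median log2 fold change was 0.01. The libraries of the doses did not overlap for 8 of the 9 genes, against 47.9% of all genes tested. The share of higher calls depends on the scaling: 2314 genes were called higher and 1965 lower on the deposited scale, against 1630 and 2633 when every library was brought to a common sum. Under that common sum, the calls of Egln3, Higd1a and Vegfa are lost and Egln1 is called lower.

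Between 50 µM and 0 µM, 1 of the 9 genes was called (Adm, lower), where 0.791% of all genes were called and 0.435% were called lower. Between 100 µM and 50 µM, 3 of the 9 were lower (Hif1a, Epas1 and Ndufa4l2) and 1 was higher (Ero1l), with Vegfa also higher, where 25.1% of all genes were called, 13.2% higher and 12.0% lower. Libraries did not overlap for 4 of the 9 genes between 50 µM and 0 µM, against 20.7% of all genes, and for 4 of the 9 between 100 µM and 50 µM, against 40.4%. The comparisons share libraries, so they are not independent of one another.

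**Figure D2:**
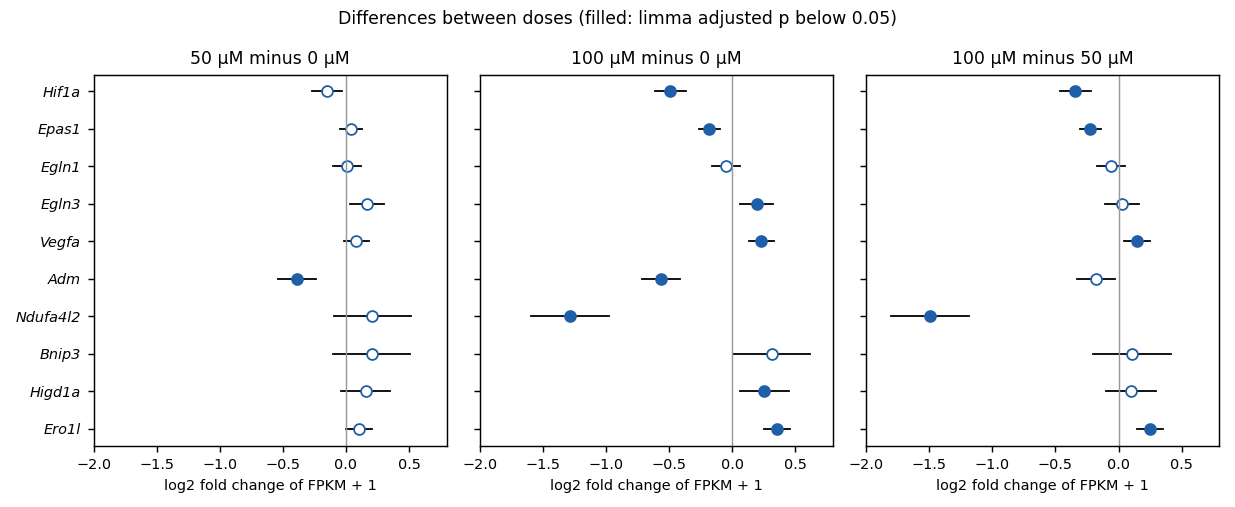
Log2 fold change of FPKM + 1 (x axis) of each gene (y axis) for 50 against 0 µM, 100 against 0 µM and 100 against 50 µM, with 95% confidence intervals from limma; filled circles have an adjusted p below 0.05. Ndufa4l2 has the lowest values, -1.29 for 100 against 0 µM and -1.50 for 100 against 50 µM, and in 50 against 0 µM the filled circle is Adm at -0.39.

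Sample titles give adipose-derived stem cells under white differentiation. Of markers of mature white adipocytes, 10 of 10 tested were higher at 100 µM than at 0 µM. This does not show what share of the cells had matured. The summed level of these markers was 10109 to 10824 FPKM in 100 µM libraries, against 7102 to 7239 FPKM in 0 µM libraries. Lep was listed at 0 at 0 and 50 µM. Progenitor markers summed to 310 to 377 FPKM in 100 µM libraries, against 566 to 624 FPKM in 0 µM libraries, with 4 of 6 tested lower and Dpp4 and Dlk1 under 1 FPKM throughout. Macrophage markers summed to 145 to 154 FPKM at 100 µM, against 185 to 206 FPKM at 0 µM, with 6 of 7 lower and Ptprc under 1 FPKM in every library. Pericyte and smooth muscle markers summed to 176 to 187 FPKM at 100 µM, against 243 to 275 FPKM at 0 µM, with 2 higher and 2 lower of 8. Their part in the changes of the 10 genes was not tested. In bulk RNA, fewer cells of a type and less RNA per cell cannot be told apart. Rebuilt reads ranged from 14019672 to 17094467 per library, and no library repeated another: between libraries of a dose, chi-square per gene was 3.39 to 7.85, where counting noise alone gives about 1.

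Hif1a (chr12:76126794-76167943, plus strand, in the coordinates of the C57BL/6NJ assembly that the table uses) encodes the oxygen-labile subunit of HIF1. Its level was 66.6, 59.6 and 69.0 FPKM in the 0 µM libraries, 59.05, 59.2 and 57.1 FPKM in the 50 µM libraries, and 46.1, 45.6 and 46.05 FPKM in the 100 µM libraries. All 100 µM libraries were below all others, and the 50 µM libraries lay just below the lowest 0 µM library. Hif1a fell by 0.49 ± 0.0533 on the log2 scale (SE) at 100 µM against 0 µM (limma, adjusted p = 0.000158) and by 0.34 at 100 µM against 50 µM (limma, adjusted p = 0.00194). At 50 µM against 0 µM the difference was -0.15 and did not pass (95% interval -0.27 to -0.03, limma adjusted p = 0.235). An antisense gene, Gm15283, overlaps Hif1a at 1.11 ± 0.326 FPKM in 100 µM libraries and 2.02 ± 0.499 FPKM in 0 µM libraries (adjusted p = 0.0607, limma). Whether counting used strand is not given in the sources used here, and reads of this gene and Hif1a may be mixed.

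Epas1 (chr17:93216299-93298998, plus strand) encodes the other α subunit and is known for its part in endothelial cells and adipocytes. Its libraries read 34.5, 36.4 and 35.4 FPKM at 0 µM, 35.75, 37.65 and 36.1 FPKM with 50 µM alginate, and 31.3, 31.3 and 30.8 FPKM with 100 µM. The 100 µM libraries were lowest, and those of the other doses overlapped. Epas1 fell by 0.18 ± 0.0383 on the log2 scale at 100 µM against 0 µM (limma, adjusted p = 0.00585) and by 0.22 against 50 µM (adjusted p = 0.00306). The mean ratio of Hif1a to Epas1 levels within a library was 1.84 ± 0.175 in 0 µM libraries, 1.60 ± 0.0435 in 50 µM libraries and 1.47 ± 0.0199 in 100 µM libraries. All 3 ratios at 100 µM lay below every ratio at the other doses, so Hif1a RNA stood closer to Epas1 RNA at the high dose.

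**Figure D3:**
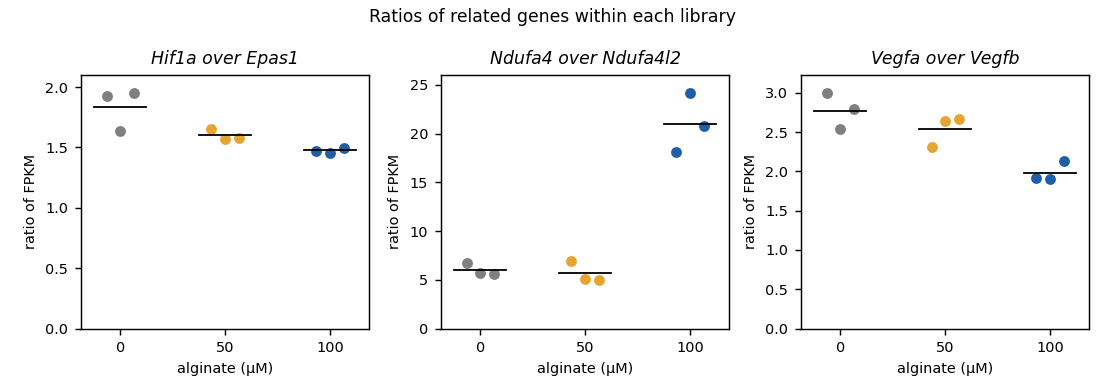
Ratio of FPKM values within each library (y axis, from 0) against alginate dose (x axis, µM) for Hif1a over Epas1, Ndufa4 over Ndufa4l2 and Vegfa over Vegfb; dots are libraries and lines are means of 3. The Ndufa4 to Ndufa4l2 ratio lies between 18.1 and 24.1 at 100 µM and between 4.96 and 6.90 at the other doses.

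Egln1 (chr8:132912451-132958653, minus strand) encodes PHD2, the main oxygen sensor that acts on HIF1α. It read 21.6, 22.2 and 21.5 FPKM at 0 µM, 21.1, 21.4 and 23.3 FPKM with 50 µM alginate, and 21.2, 21.7 and 20.2 FPKM with 100 µM, and all doses overlapped. Its difference of -0.05 between 100 µM and 0 µM did not pass (limma, adjusted p = 0.488), with a 95% interval of -0.16 to 0.06 on the log2 scale. With a common sum per library the difference was -0.12 and passed (limma, adjusted p = 0.0489).

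Egln3 (chr12:54688657-54719969, minus strand) encodes PHD3, whose own gene is a HIF target. It read 11.05, 11.0 and 11.05 FPKM at 0 µM, 11.6, 12.4 and 13.6 FPKM with 50 µM alginate, and 12.5, 12.4 and 13.4 FPKM with 100 µM. The 0 µM libraries were below all others and close together. Rebuilt reads of Egln3 ranged from 426 to 569 per library. Counting noise at that depth is wider than the 0 µM SD of 0.0299 FPKM, so their closeness may be chance. Egln3 rose by 0.19 ± 0.0588 on the log2 scale at 100 µM against 0 µM (limma, adjusted p = 0.0312). The call was lost under 10 of 19 alternative settings of the analysis, among them leaving out any 1 library of either dose, where the adjusted p ran up to 0.0994. The mean ratio of Egln1 to Egln3 was 1.97 ± 0.0400 in 0 µM libraries, 1.75 ± 0.0585 in 50 µM libraries and 1.65 ± 0.124 in 100 µM libraries.

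Adm (chr7:118849571-118851730, plus strand) encodes adrenomedullin, a secreted peptide that widens vessels, and had the highest FPKM of the 10 genes. It read 182, 180 and 174 FPKM at 0 µM, 143, 125 and 141 FPKM with 50 µM alginate, and 129, 121 and 111 FPKM with 100 µM. All alginate libraries were below all 0 µM libraries, and the alginate doses overlapped. Adm fell by 0.57 ± 0.0666 on the log2 scale at 100 µM against 0 µM (limma, adjusted p = 0.000243) and by 0.39 ± 0.0666 at 50 µM against 0 µM (adjusted p = 0.0366). At 100 µM against 50 µM the difference of -0.18 did not pass (limma, adjusted p = 0.0843). It passed, as lower, under 6 of 19 alternatives: with a common sum per library (limma, adjusted p = 0.0141), quantile normalization (0.0153), the authors' scaling factor removed (0.0247) or voom on rebuilt reads (0.00375), and without replicate 2 at 50 µM (0.0351) or replicate 1 at 100 µM (0.0435). The 50 µM call was lost under 11 of 19 alternatives, with adjusted p up to 0.136, among them leaving out any library of either dose; it was lower under each.

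Vegfa (chr17:49098338-49113975, minus strand) encodes the growth factor that drives endothelial sprouting. The gene with that description read 41.2, 37.7 and 39.2 FPKM at 0 µM, 42.3, 42.8 and 40.1 FPKM with 50 µM alginate, and 46.1, 45.5 and 47.55 FPKM with 100 µM. The 100 µM libraries were above all others, and the 0 and 50 µM libraries overlapped. Vegfa rose by 0.23 ± 0.0454 on the log2 scale at 100 µM against 0 µM (limma, adjusted p = 0.00391), and not with a common sum per library (0.16, adjusted p = 0.0641). At 100 µM against 50 µM it rose by 0.15 (limma, adjusted p = 0.0402), a call lost under 15 of 19 alternatives. The 2 secreted vessel factors among the 10 genes thus had opposite directions at 100 µM.

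Ndufa4l2 (chr10:135576184-135578397, plus strand) encodes a mitochondrial protein that is related to the complex IV subunit Ndufa4 and lowers respiration in hypoxic cells. It read 28.4, 33.1 and 32.0 FPKM at 0 µM, 28.8, 37.7 and 43.2 FPKM with 50 µM alginate, and 13.9, 11.2 and 11.55 FPKM with 100 µM. The 100 µM libraries were far below all others, and the 0 and 50 µM libraries overlapped, with the 50 µM libraries widely spread. Ndufa4l2 fell by 1.29 ± 0.136 on the log2 scale at 100 µM against 0 µM (limma, adjusted p = 0.000136) and by 1.50 ± 0.136 at 100 µM against 50 µM (adjusted p = 0.00026). At 50 µM against 0 µM the difference of 0.21 did not pass (limma, 95% interval -0.10 to 0.52, adjusted p = 0.541).

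The 50 µM level of Ndufa4l2 lay 0.85 ± 0.118 above the midpoint of 0 and 100 µM on the log2 scale (limma, adjusted p = 0.0245), and Ndufa4l2 was the 1 gene of the 9 called in that comparison on the deposited scale, in which 1.49% of all genes were called and 0.989% were called above the midpoint. Epas1 was also called above the midpoint with the authors' factor removed (0.17, limma adjusted p = 0.0451) and with voom (0.17, adjusted p = 0.0156). The Ndufa4l2 call was lost under 8 of 18 alternatives, with a log2 difference between 0.73 and 1.01 and an adjusted p up to 0.121, among them leaving out replicate 1 or 3 at 0 µM, and replicate 2 or 3 at 50 or at 100 µM. Rebuilt reads of Ndufa4l2 ranged from 146 to 651 per library. The gene Shmt2 on the opposite strand overlaps it by 30 bases and did not pass (28.5 ± 0.350 FPKM in 100 µM libraries, 29.9 ± 2.00 FPKM in 0 µM libraries; adjusted p = 0.452, limma).

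Ndufa4 itself rose, with 254 ± 15.2 FPKM in 100 µM libraries and 186 ± 5.50 FPKM in 0 µM libraries (log2 fold change 0.44, limma adjusted p = 0.00041). The ratio of Ndufa4 to Ndufa4l2 was 6.01 ± 0.630 at 0 µM, 5.65 ± 1.08 at 50 µM and 21.0 ± 3.00 at 100 µM. No ratio at 100 µM overlapped one at another dose.

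Bnip3 and Higd1a also act at mitochondria. Bnip3 (chr7:149223800-149244576, minus strand) encodes a receptor for the removal of mitochondria by autophagy. It read 57.6, 54.6 and 55.5 FPKM at 0 µM, 76.4, 65.9 and 53.4 FPKM with 50 µM alginate, and 77.15, 75.8 and 57.8 FPKM with 100 µM. Replicate 3 was the lowest at both alginate doses; at 100 µM it lay just above the highest 0 µM library, and the 50 µM libraries overlapped both other doses. The difference of 0.31 ± 0.136 between 100 µM and 0 µM did not pass (limma, 95% interval 0.01 to 0.62, adjusted p = 0.110). Without replicate 3 at 100 µM it was 0.45 and passed (limma, adjusted p = 0.0279).

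Higd1a (chr9:128227526-128236966, minus strand) encodes a small inner membrane protein that binds respiratory complexes. It read 29.4, 32.4 and 30.7 FPKM at 0 µM, 33.8, 31.1 and 38.8 FPKM with 50 µM alginate, and 39.8, 37.6 and 33.6 FPKM with 100 µM. The 100 µM libraries were above the 0 µM libraries and overlapped those at 50 µM. Higd1a rose by 0.25 ± 0.0865 on the log2 scale at 100 µM against 0 µM (limma, adjusted p = 0.0487), a call lost under 13 of 19 alternatives, among them leaving out any library at 0 µM, replicate 1 at 50 µM, or replicate 1 or 2 at 100 µM, with adjusted p up to 0.145.

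Ero1l (chr14:40598465-40634175, minus strand) encodes the endoplasmic reticulum oxidase that makes disulfide bonds in secreted proteins. It read 33.8, 32.8 and 34.1 FPKM at 0 µM, 35.6, 38.3 and 34.6 FPKM with 50 µM alginate, and 44.4, 42.3 and 43.1 FPKM with 100 µM. Each dose lay above the one before it, with no overlap. Ero1l rose by 0.36 ± 0.0454 on the log2 scale at 100 µM against 0 µM (limma, adjusted p = 0.000378) and by 0.25 at 100 µM against 50 µM (adjusted p = 0.00389). At 50 µM against 0 µM its difference of 0.10 did not pass (limma, adjusted p = 0.343).

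The 3 genes with the largest differences at 100 µM were set beside the protein-coding genes with the nearest profile, by the root mean square difference of log2(FPKM + 1) over the 9 libraries after centring on 0 µM, among 10645 genes. For Ndufa4l2 these were Aqp1 (distance 0.202), Mmp3 (0.208) and S100a6 (0.210). For Adm they were Emb (0.0642), Vegfd (0.0741) and Adamts5 (0.0802). For Hif1a they were Prrx1 (0.0423), Dclk1 (0.0449) and Cd38 (0.0459). Aqp1 read 6.83 ± 0.570 FPKM in 100 µM libraries, against 14.4 ± 2.23 FPKM in 0 µM libraries, and Prrx1 read 31.6 ± 0.436 FPKM in 100 µM libraries, against 43.6 ± 1.59 FPKM in 0 µM libraries. The distance of the nearest gene was largest for Ndufa4l2. This distance is not scaled, so it grows with a gene's change and spread, and Ndufa4l2 had the largest of both among the 3 genes. It therefore does not show that the profile of Ndufa4l2 was unusual.

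Around the 10 genes, 101 other symbols of the pathway were listed, of which 97 were matched and 86 were tested. Hsp90aa1 and Gapdh among them, and the progenitor marker Cd55, were matched by description, as Vegfa was. Gapdh so matched read 35.5 ± 5.24 FPKM in 0 µM libraries, and neither it nor Hsp90aa1 was called in any comparison of 2 doses. At 100 µM against 0 µM, 16 rose (18.6%, against 18.3% of all genes tested) and 34 fell (39.5%, against 15.6% of all genes tested). The share that rose was thus at the background. The median log2 fold change was -0.12, against 0.01 over all genes. At 50 µM against 0 µM, 0 rose and 3 fell (Vegfd, Loxl4 and Igfbp3), which is 3.49%, against 0.435% of all genes. At 100 µM against 50 µM, 16 rose (18.6%, against 13.2%) and 22 fell (25.6%, against 12.0%).

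**Figure D4:**
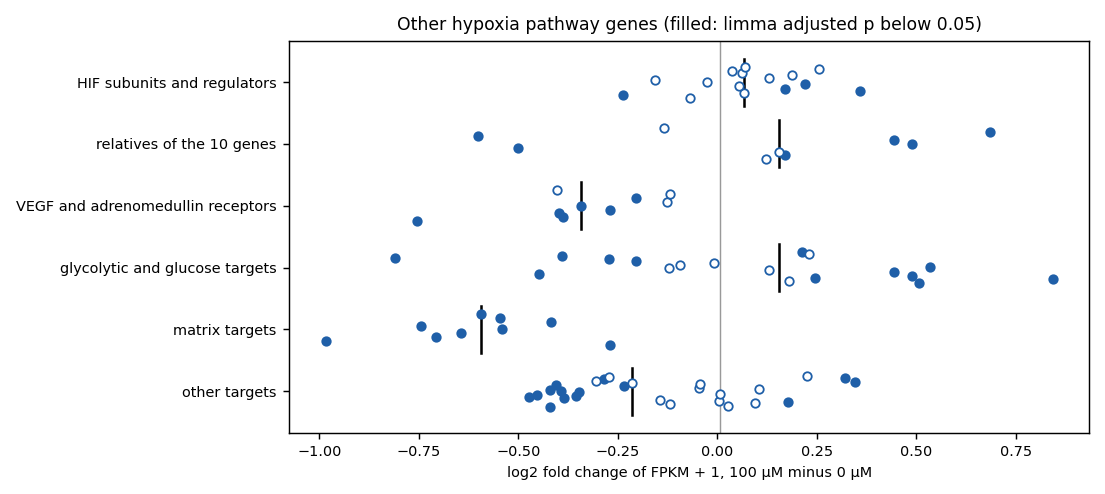
Log2 fold change of FPKM + 1 at 100 µM minus 0 µM (x axis) of every tested gene of 6 hypoxia lists (y axis); each dot is a gene, filled where the limma adjusted p is below 0.05, the black bar is the list's median and the grey line the median of all genes. All 9 matrix genes are filled and below 0, with a median of -0.59, while glycolytic genes lie on both sides.

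Of 15 tested subunits and regulators of HIF, 3 rose and 1 fell, with a median of 0.07; 26.7% were called, against 33.9% of all genes. The balance depends on the scaling: 1 rose and 3 fell with the authors' factor removed, 1 rose and 2 fell with a common sum, and 3 rose and 3 fell with voom. Cul2, the scaffold of the ligase that holds the von Hippel-Lindau protein, had 24.9 ± 0.667 FPKM in 100 µM libraries, against 19.2 ± 0.594 FPKM in 0 µM libraries (log2 fold change 0.36, limma adjusted p = 0.000366). Hif1an, the asparagine hydroxylase that blocks HIF activity, had 10.4 ± 0.211 FPKM in 100 µM libraries, against 8.75 ± 0.127 FPKM in 0 µM libraries (0.22, limma adjusted p = 0.0170), and Egln2 rose by 0.17 (adjusted p = 0.0237). The Hif1an call was lost under 5 and the Egln2 call under 8 of 19 alternatives, and 1 gene of the list was higher without replicate 3 at 100 µM. Cited2, which competes with HIF for its coactivators, fell by 0.24 (limma, adjusted p = 0.0133; 0.0512 without replicate 2 at 100 µM). Arnt, the partner of the α subunits, read 12.8 ± 0.0399 FPKM in 100 µM libraries, against 13.5 ± 0.367 FPKM in 0 µM libraries, and did not pass (limma, adjusted p = 0.239). Vhl read 9.87 ± 0.385 FPKM at 100 µM, against 9.37 ± 0.850 FPKM at 0 µM, and did not pass either (limma, adjusted p = 0.465).

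Of 9 tested relatives of the 10 genes, 4 rose and 2 fell, with a median of 0.16. In this list 66.7% were called, against 33.9% of all genes. Egln2 is among those that rose and was also counted with the regulators above, so the lists share a gene. Vegfb, a relative of Vegfa, had 23.4 ± 0.991 FPKM in 100 µM libraries, against 14.2 ± 0.571 FPKM in 0 µM libraries (log2 fold change 0.68, limma adjusted p = 0.000103). The ratio of Vegfa to Vegfb was 2.78 ± 0.230 in 0 µM libraries, 2.54 ± 0.199 in 50 µM libraries and 1.98 ± 0.130 in 100 µM libraries. Vegfd, a ligand of lymphatic vessel receptors, fell by 0.50 at 100 µM (limma, adjusted p = 0.000136) and by 0.31 at 50 µM (adjusted p = 0.0366), both against 0 µM. Pgf fell by 0.60 (limma, adjusted p = 0.0499), a call lost under 11 of 19 alternatives, and Higd2a rose by 0.49 (adjusted p = 0.0153). Vegfc (-0.14), Bnip3l (0.12) and Ero1lb (0.16) did not pass, although Vegfc passed, as lower, with a common sum (limma, adjusted p = 0.0478).

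Of 9 tested receptors for VEGF and adrenomedullin, 6 fell (66.7%, against 15.6% of all genes) and 0 rose, with a median of -0.34. Kdr, the main receptor of Vegfa, had 4.20 ± 0.405 FPKM in 100 µM libraries, against 5.59 ± 0.191 FPKM in 0 µM libraries (log2 fold change -0.34, limma adjusted p = 0.00565). Flt1, which binds Vegfa and Vegfb, fell by 0.40 (limma, adjusted p = 0.0180), and Nrp2 fell by 0.20 (adjusted p = 0.00895). Ackr3, a scavenging receptor for chemokines that also takes up adrenomedullin, fell by 0.76 (limma, adjusted p = 0.000738). Calcrl, the signalling receptor of adrenomedullin, chosen after its values were seen, fell by 0.39 (limma, adjusted p = 0.0226). The count was 3 without replicate 3 at 0 µM or without replicate 2 at 100 µM. Markers of endothelial cells, which carry many of these receptors, moved with this list: 7 of 8 tested were lower, and their summed level was 134 to 137 FPKM in 100 µM libraries, against 156 to 172 FPKM in 0 µM libraries, with Vwf under 1 FPKM in every library. Without replicate 2 or without replicate 3 at 0 µM, 4 of these markers were lower. Their part in the result was not tested.

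Of 18 tested genes of glucose uptake, glycolysis and glycogen, 7 rose (38.9%, against 18.3% of all genes) and 5 fell (27.8%, against 15.6%), with a median of 0.16. The glycogen branching enzyme Gbe1 had 31.8 ± 2.27 FPKM in 100 µM libraries, against 17.3 ± 1.63 FPKM in 0 µM libraries (log2 fold change 0.84, limma adjusted p = 7.66e-05), and the glycogen synthase Gys1 rose by 0.49 (adjusted p = 4.04e-05). Aldoa, the abundant aldolase, had 921 ± 29.8 FPKM in 100 µM libraries, against 648 ± 11.3 FPKM in 0 µM libraries (log2 fold change 0.51, limma adjusted p = 5.61e-05). Also higher were hexokinase Hk2 (0.44, limma adjusted p = 0.000361), Pfkfb3 (0.53, adjusted p = 0.000419), Gpi1 (0.25, adjusted p = 0.000666) and Tpi1 (0.21, adjusted p = 0.00553). Lower were the lactate exporter Slc16a3 (-0.81, limma adjusted p = 0.000365), hexokinase Hk1 (-0.45, adjusted p = 0.00012), the glucose transporter Slc2a1 (-0.39, adjusted p = 0.000788), Pkm (-0.27, adjusted p = 0.00397) and Pfkp (-0.20, adjusted p = 0.0249). The hexokinases thus went opposite ways. Hk2 read 32.1 ± 1.47 FPKM in 100 µM libraries, against 23.35 ± 1.11 FPKM in 0 µM libraries. Hk1 read 6.91 ± 0.306 FPKM and 9.79 ± 0.027 FPKM in the same libraries. Pgk1, Pgam1 and Eno1 were not analysed here.

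All 9 listed HIF targets that modify or build matrix fell, where 15.6% of all genes did, with a median of -0.59. Lox, which crosslinks collagen, had 197 ± 10.2 FPKM in 100 µM libraries, against 391 ± 18.3 FPKM in 0 µM libraries (log2 fold change -0.98, limma adjusted p = 1.47e-05). Loxl2 fell by 0.71 (limma, adjusted p = 1.66e-05), and the collagen prolyl hydroxylases P4ha1 and P4ha2 fell by 0.54 and 0.74 (adjusted p = 2.14e-05 and 6.11e-05). Summed progenitor, pericyte and smooth muscle markers were lower in the same libraries, as given above. The pericyte and smooth muscle list did not fall as a whole: 2 of 8 tested were higher and 2 lower, with a median of 0.02. Most of the progenitor sum was Ly6a, at 260 to 325 FPKM in 100 µM libraries and 489 to 551 FPKM in 0 µM libraries. The part of these markers in the result was not tested. Of the 27 other tested targets, 11 fell (40.7%, against 15.6% of all genes) and 3 rose (11.1%, against 18.3%), with a median of -0.21. The feedback inhibitor of growth factor receptors Errfi1 fell by 0.45 (limma, adjusted p = 5.55e-05), Igfbp3 by 0.42 (adjusted p = 0.000188) and the vasoconstrictor peptide gene Edn1 by 0.36 (adjusted p = 0.000738). The 3 that rose were the transferrin receptor Tfrc (0.32, limma adjusted p = 0.000705), the nuclear receptor Rora (0.35, adjusted p = 0.0227) and the cyclin Ccng2 (0.18, adjusted p = 0.0252). The count of 3 was 1 with a common sum, without replicate 2 at 0 µM or without replicate 3 at 100 µM. The count of 11 was 8 without replicate 1 or 3 at 0 µM, and 15 with voom on rebuilt reads.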

How the data were processed

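The 9 libraries were made from total RNA of cultured mouse adipose cells with an mRNA library kit, per the labels' protocols. The authors deposited 1 table of FPKM values, per the file headers. Which aligner and counter they used is not given in the sources used here. GRCm38 and mm10 stand in the submitters' processing notes as builds, whereas gene identifiers in the table belong to the C57BL/6NJ strain. Each FPKM value times gene length, divided by the step that 1 read adds in its library, was whole within 0.01 for 100% of values, so reads were rebuilt; the deposited scaling total over reads was 1.01 to 1.03 at 0 and 50 µM and 0.969 to 0.976 at 100 µM. Of the genes, 12635 with at least 1 FPKM in 3 or more libraries were fitted on log2(FPKM + 1), using limma 3.58.1 (R 4.3.3), with 1 mean per dose over all 9 libraries, a variance trend and two-sided tests. The pseudocount of 1 understates changes of low genes. Adjusted p-values (Benjamini-Hochberg) run over all tested genes, also where members are named. The procedure was tested on simulated data. The 10 genes and the lists were chosen with earlier results of these data known, so counts over them are descriptions. Named from the lists were up to 4 called genes with the smallest p, the members of a minority direction of 5 or fewer, and all tested relatives. Arnt, Vhl, Calcrl, Loxl4 and the genes overlapping Hif1a and Ndufa4l2 were named outside this rule, after their values were seen. So were Hk2, Pfkfb3, Gpi1, Tpi1, Hsp90aa1, Gapdh and Cd55. Promoter sequences are from RefSeq (GRCm38.p6), found for 8 of the 10 genes by symbol. Alternatives were another pseudocount, filters, scalings, voom on rebuilt reads, no variance trend, 2 doses only, a replicate block and each library left out.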

Additional observations from a re-analysis of the deposited data

How the results depend on the processing

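Between 100 and 0 µM, the calls of Hif1a, Epas1, Adm, Ndufa4l2 and Ero1l held under all 19 alternatives. The count of 4279 genes called between 100 and 0 µM, and of 3173 between 100 and 50 µM, stayed within 1.5 times under each. Between 50 and 0 µM, where 100 genes were called, the count was 12 with no filter on low values, 208 at 5 FPKM or more and 362 with voom. It was 0 without a variance trend, 0 with only the 2 doses fitted and 0 with the replicate block, where limma gave 1755, 1837 and 1603 genes at an unadjusted p below 0.05; leaving out 1 library gave 0 to 112. For 50 µM against the midpoint, where 188 were called, it was 2 with no filter, 283 at 5 FPKM or more, 312 with a common sum, 315 with the authors' factor removed, 887 with voom, 40 without a trend, 7 with the replicate block and 0 to 149 with a library left out. The cause was not tested. Replicate numbers showed no sign of pairing: same-numbered deviations correlate at -0.09 to 0.04, and differently numbered ones at -0.08 to 0.10. This cannot exclude a weak pairing, and the labels do not settle it. The replicate block left 3808 calls between 100 and 0 µM and gave Bnip3 a limma adjusted p of 0.0392 there. Among the 10 genes, the block ended the calls of Higd1a between 100 and 0 µM (limma, adjusted p = 0.0930) and of Adm between 50 and 0 µM (0.0787). It also ended those of Vegfa between 100 and 50 µM (limma, adjusted p = 0.0789) and of Ndufa4l2 against the midpoint (0.0602). Signs turned where no call was made. Egln1 between 50 and 0 µM was -0.00248 with a common sum, -0.0150 with quantile normalization and -0.0341 to 0.0359 with a library left out. Egln3 between 100 and 50 µM was -0.0315 with a common sum, -0.0373 with the authors' factor removed, -0.0380 with voom and -0.0237 to 0.0853 with a library left out, and Bnip3 there was -0.0263 to 0.241. Against the midpoint, leaving out a library gave -0.00985 to 0.0602 for Egln1, -0.0724 to 0.183 for Bnip3 and -0.0561 to 0.0996 for Higd1a, and Vegfa was 0.00153 with the factor removed and 0.00185 with voom. Of 31 pathway genes named by the rule and called, 22 kept their call under each alternative. The 9 others were Cited2, Hif1an, Egln2, Pgf, Higd2a, Flt1, Pfkp, Rora and Ccng2. In windows of 300 bases, 43.8% of all windows and 49.3% of those of protein-coding genes held a HIF core. Ndufa4l2 had as few as 146 reads in a library, and its standard error and that of Bnip3 (0.136 each) were the largest of the 10 genes.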
